A study of Mus musculus with 4 samples.

Results

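The axon guidance genes of the mouse are described here across 4 RNA sequencing libraries of cultured hippocampal cells. They were taken by symbol: semaphorins, plexins, Nrp1 and Nrp2, ephrins of class A and B, their Eph receptors, Slits, Robos, netrins, Unc5a to Unc5d and Dcc. This gave 69 genes of the 23334 analysed, all of which were found in the GENCODE annotation. All cells came from Vegfr3::YFP reporter mice on a C57BL/6 background, sorted from 2 groups of 16 mice and then cultured for 18 h. The 4 groups were YFP-positive cells, YFP-positive cells given VEGF-C at 50 ng/ml, YFP-negative cells, and YFP-negative cells given the same dose. By the labels, cells with YFP are neural stem cells and cells without it are neurons, both from the subgranular zone, the stem cell layer of the dentate gyrus. The labels give neither age nor sex. Cells of both mouse groups were pooled within a condition, so each group has 1 library. The sorted populations are called reporter-positive and reporter-negative below. No difference given here could be checked against replicates, and none was tested.

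Axon guidance molecules steer growing axons and migrating cells by attraction or repulsion. Ephrins are membrane-bound ligands of the Eph receptor tyrosine kinases and signal in both directions between touching cells. Semaphorins act through plexins, and the secreted class 3 semaphorins mostly need a neuropilin as co-receptor. Neuropilins also bind VEGF family ligands, among them VEGF-C, and assist the VEGF receptors. Netrin-1 acts through Dcc and the Unc5 receptors, and Slits repel cells through Robo receptors. In the dentate gyrus, ephrin and Eph signals are known to act on neural stem cells, and semaphorins on the wiring of newborn granule neurons.

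Of 5 members that stand for the patterns below, the 250 bases upstream of their RefSeq transcription starts (GRCm38.p6, mm10) are shown 5′ to 3′ on the strand of the gene. Efna5 and Nrp1 were higher in reporter-positive cells in both pairs of libraries, Unc5b and Sema5a were lower in both, and Ephb1 went opposite ways. Between the gene-rich libraries alone, defined below, Nrp1 and Sema5a did not reach 2-fold. Capitals mark GGGCGG, the GC box, and its reverse complement CCGCCC.

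Nrp1, chr8:128358823-128359072, plus strand: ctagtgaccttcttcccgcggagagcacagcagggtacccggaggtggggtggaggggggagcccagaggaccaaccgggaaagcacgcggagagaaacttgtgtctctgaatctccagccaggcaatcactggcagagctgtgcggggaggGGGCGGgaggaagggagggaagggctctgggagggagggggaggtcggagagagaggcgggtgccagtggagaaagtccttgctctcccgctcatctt
Efna5, chr17:62881318-62881567, minus strand: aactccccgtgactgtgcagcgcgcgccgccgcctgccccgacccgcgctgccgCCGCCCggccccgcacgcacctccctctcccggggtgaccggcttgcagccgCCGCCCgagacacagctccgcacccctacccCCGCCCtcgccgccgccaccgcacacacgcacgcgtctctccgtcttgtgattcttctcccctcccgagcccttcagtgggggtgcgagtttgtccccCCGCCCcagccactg
Unc5b, chr10:60831582-60831831, minus strand: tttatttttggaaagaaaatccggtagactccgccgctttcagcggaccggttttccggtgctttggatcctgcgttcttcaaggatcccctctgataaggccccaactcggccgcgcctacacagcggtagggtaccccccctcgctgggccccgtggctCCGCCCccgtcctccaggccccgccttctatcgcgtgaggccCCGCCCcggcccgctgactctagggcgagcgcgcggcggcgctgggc
Sema5a, chr15:32244563-32244812, plus strand: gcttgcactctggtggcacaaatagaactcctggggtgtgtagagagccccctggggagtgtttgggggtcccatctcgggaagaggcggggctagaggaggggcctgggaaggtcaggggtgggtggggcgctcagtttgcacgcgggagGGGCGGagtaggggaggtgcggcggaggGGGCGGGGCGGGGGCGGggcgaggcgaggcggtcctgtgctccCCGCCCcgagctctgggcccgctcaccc
Ephb1, chr9:102354694-102354943, minus strand: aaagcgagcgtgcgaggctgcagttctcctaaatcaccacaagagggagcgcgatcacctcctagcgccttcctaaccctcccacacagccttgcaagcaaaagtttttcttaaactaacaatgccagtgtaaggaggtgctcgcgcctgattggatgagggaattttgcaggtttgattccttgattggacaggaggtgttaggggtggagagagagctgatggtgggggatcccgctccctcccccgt

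The Efna5 window holds 4 GC boxes, Sema5a 5 of which some share bases, Unc5b 2 and Nrp1 1, and Ephb1 holds 0. On both strands, GGGCGG stood in 53 of 75 upstream windows of 59 members (70.7%), against 42.6% of 21263 windows of protein-coding genes. The members' windows had a median of 64.4% G and C, against 55.6%. The SOX core CCATTGT stood in 2.67% of the members' windows and 2.37% of all, the E-box CAGCTG in 16.0% and 12.1%, and TATAAA in 2.67% and 11.6%. None of those motifs stands in the 5 windows shown. These are matches of letters, not binding sites.

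Depth and the number of genes detected differed among the libraries, and this touches every count below. From 8390506 to 60326302 fragments could be inferred per library, as explained in the processing notes. The reporter-positive library showed 41.4% of all genes above 0 and the reporter-negative VEGF-C library 41.0%, against 58.0% in the reporter-positive VEGF-C library and 56.3% in the reporter-negative library. Of the 69 members, 35, 31, 55 and 47 were above 0 in those libraries in the same order. The libraries showing about 41% of genes are called gene-poor below, and the others gene-rich. Each of the 4 comparisons sets a gene-poor library against a gene-rich library, and the part this plays in the results was not tested.

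Markers of other cells also moved with the sort. All 10 oligodendrocyte markers were lower in reporter-positive cells in both pairs, with a summed level of 357 and 471 FPKM in the reporter-positive libraries (control, then VEGF-C) and of 7512 and 9059 FPKM in the reporter-negative libraries. None of these 10 was listed at 0 in any library. The 6 oligodendrocyte precursor markers summed to 306 FPKM in reporter-positive and 171 FPKM in reporter-negative cells without VEGF-C, and to 30.9 and 560 FPKM with it, and 2, 1, 1 and 3 of them were listed at 0 in the same order. Sox10 made up most of each of these sums, at 249, 115, 20.1 and 429 FPKM in that order. Olig1 reached 117 FPKM and Olig2 56.8 FPKM. Pdgfra was listed at 0 in every library, Gpr17 was at most 0.0753 FPKM and Cspg4 at most 1.35 FPKM. FPKM counts fragments relative to transcript length and to the mapped fragments of the library. The 12 microglia markers summed to 1.09 and 12.8 FPKM in reporter-positive and to 307 and 834 FPKM in reporter-negative cells. Of those 12, 5, 6, 2 and 4 were listed at 0 in these libraries. The 10 astrocyte markers summed to 1304 and 1153 FPKM in reporter-positive and to 18.8 and 2.08 FPKM in reporter-negative cells, where 1 and 3 of them were listed at 0. The 12 neuron markers summed to 309 and 401 FPKM in reporter-positive and to 133 and 67.8 FPKM in reporter-negative cells, and 5, 0, 1 and 3 of them were listed at 0. Without VEGF-C, 2 of 9 measured neuron markers were higher in reporter-positive cells and 5 lower, and with VEGF-C 6 of 10 were higher and 1 lower. In the libraries labelled neurons, the oligodendrocyte markers thus summed to far more than the neuron markers. The 9 neural stem cell markers summed to 3139 and 1746 FPKM in reporter-positive and to 312 and 924 FPKM in reporter-negative cells. Of these 9, 1, 1, 2 and 3 were listed at 0. Vim made up most of each sum, at 2333, 1215, 184 and 691 FPKM in the same order. Without VEGF-C, 7 of 8 measured stem cell markers were higher in reporter-positive cells and 1 lower, and with VEGF-C 3 of 6 were higher and 0 lower. Nes was at 39.0 and 43.2 FPKM in reporter-positive and at 82.3 and 78.0 FPKM in reporter-negative cells. The part of these cell mixtures in the differences below was not tested. In bulk libraries, fewer cells of a type and less RNA per cell cannot be told apart.

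Of the 69 members, 22 reached 10 FPKM in at least 1 library and 26 more reached 1 FPKM. Another 13 were above 0 in at least 1 library but under 1 FPKM in all, and 8 were listed at 0 throughout. The 8 were Epha3, Epha6, Epha10, Ephb6, Sema3b, Sema3g, Ntn5 and Robo4. The 13 were Efna3, Epha1, Epha8, Sema3f, Sema4g, Sema6c, Plxnd1, Ntn3, Ntn4, Unc5d, Slit1, Slit2 and Slit3, and the highest of them was Plxnd1 at 0.806 FPKM. Only 10 members were at 1 FPKM or more in all 4 libraries: Efnb2, Epha4, Ephb3, Sema4b, Sema4d, Sema6a, Sema6d, Plxna1, Plxna2 and Unc5b. Another 19 were at 1 FPKM or more in a single library, 10 of them in the reporter-positive VEGF-C library, which is also the deepest.

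**Figure D1:**
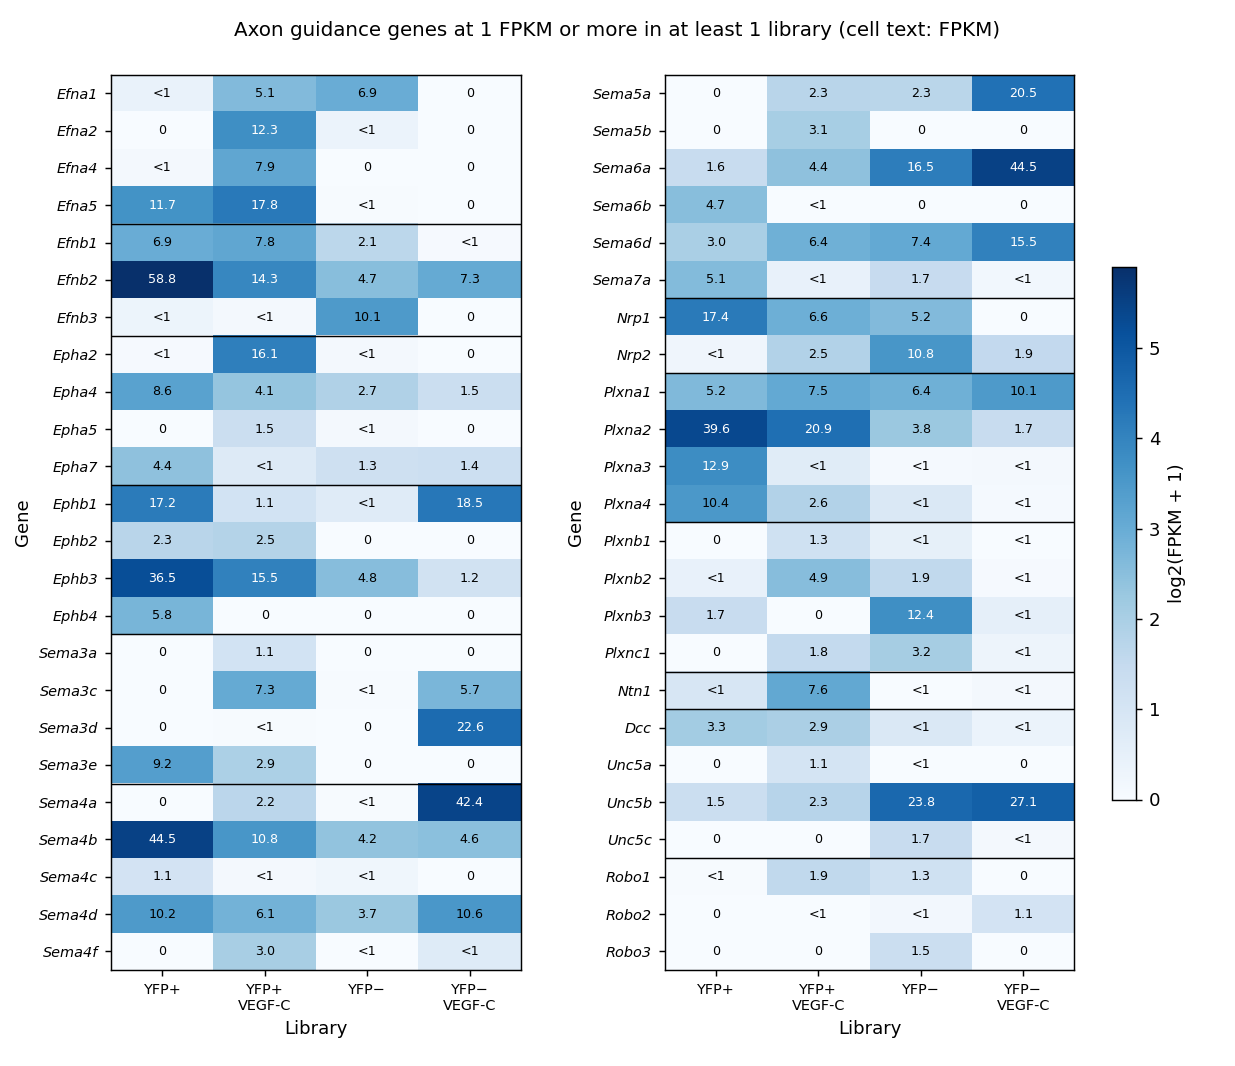
FPKM of the 48 members that reached 1 FPKM in at least 1 library, with 1 row per gene, 1 column per library, shading by log2(FPKM + 1) and horizontal lines between classes. Efnb2, Plxna2, Ephb3 and Sema4b are darkest in the reporter-positive libraries, and Unc5b and Sema6a in the reporter-negative libraries.

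The leading members differed by population. Efnb2, Sema4b, Plxna2, Ephb3 and Nrp1 had the highest FPKM in the reporter-positive library, where Efnb2 alone made up 18.1% of the summed FPKM of all members. With VEGF-C the highest there were Plxna2, Efna5, Epha2, Ephb3 and Efnb2. In the reporter-negative library they were Unc5b, Sema6a, Plxnb3, Nrp2 and Efnb3, and with VEGF-C Sema6a, Sema4a, Unc5b, Sema3d and Sema5a. The members summed to 326 FPKM in the reporter-positive library, 225 FPKM with VEGF-C, 145 FPKM in the reporter-negative library and 241 FPKM with VEGF-C there.

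**Figure D2:**
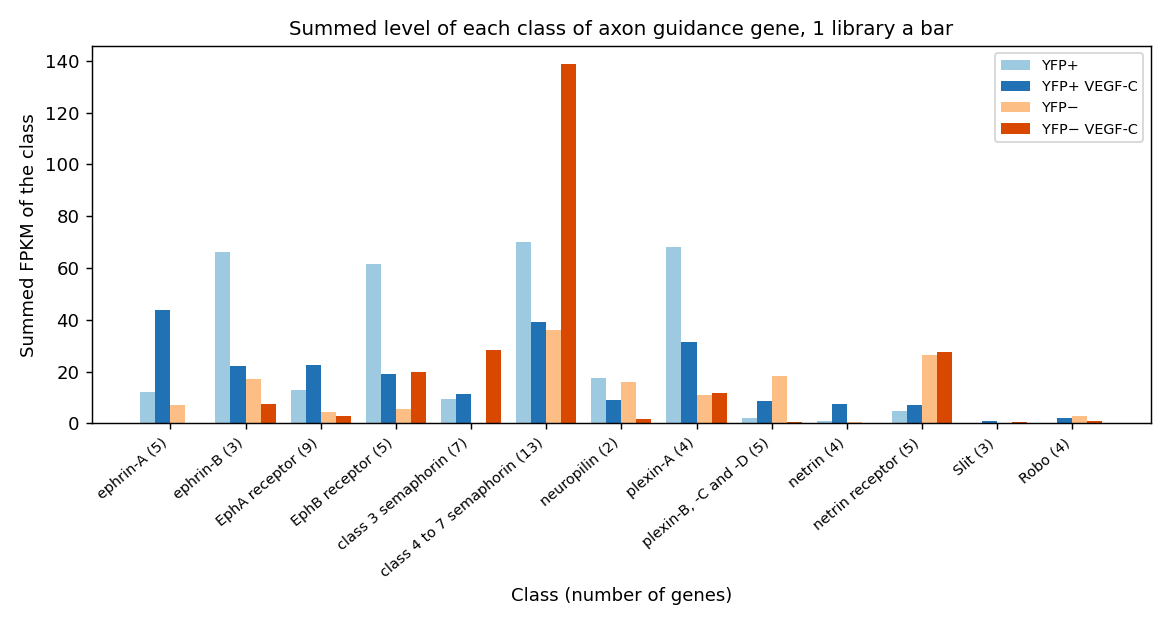
Summed FPKM (vertical axis, from 0) of each class of member, with 1 bar per library and the number of genes of the class in brackets. Class B ephrins, EphB receptors and plexin-A genes are highest in the reporter-positive library, and class 4 to 7 semaphorins in the reporter-negative VEGF-C library at 139 FPKM.

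The sort asked how reporter-positive cells differ from the rest. Differences are given as log2((FPKM + 1) / (FPKM + 1)), which understates the change of low genes, and 2-fold on that scale is the threshold for calling a member higher or lower. Members with at least 1 FPKM in at least 1 library of the pair were counted. With 1 FPKM added to both values, a counted member listed at 0 in the other library is always called. Without VEGF-C, 19 of 34 such members were higher in reporter-positive cells and 13 lower, where 30.1% of all genes were higher and 46.7% lower. Of the 19, 4 were listed at 0 in the reporter-negative library, and of the 13, 4 in the reporter-positive library. The median log2 ratio was 1.22 over the members and -0.66 over all genes. Relative to that shift, 20 members were higher and 8 lower, against 38.9% and 36.2% of all genes. With upper-quartile scaling, 13 were higher and 13 lower, against 21.5% and 53.0% of all genes. With VEGF-C, 25 of 39 members were higher and 8 lower, against 47.0% and 27.6% of all genes, with medians of 1.20 and 0.69. Relative to the shift, 15 were higher and 11 lower, against 35.1% and 37.6% of all genes, and with upper-quartile scaling 27 and 6, against 53.7% and 19.7%. Of the 25 higher members, 13 were listed at 0 in the gene-poor reporter-negative VEGF-C library.

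The pair without and the pair with VEGF-C share no library, although the cells came from the same mice. Of 25 members measured in both, 11 were higher in reporter-positive cells in both pairs (44.0%, against 15.9% of all genes) and 4 were lower in both (16.0%, against 15.2%). The 11 were Dcc, Efna5, Efnb1, Epha4, Ephb2, Ephb3, Nrp1, Plxna2, Plxna4, Sema3e and Sema4b. The 4 were Sema5a, Sema6a, Sema6d and Unc5b. Ephb2 and Sema3e were listed at 0 in both reporter-negative libraries, so the minimum and the added 1 FPKM alone fix their unscaled calls. The same holds with VEGF-C for Efna5 and Nrp1, listed at 0 in the reporter-negative VEGF-C library. It also holds without VEGF-C for Sema5a, listed at 0 in the reporter-positive library. Another 5 were called in opposite directions (20%, against 24.5% of all genes): Ephb1 higher without and lower with VEGF-C, as were 5.72% of all genes, and Efna1, Plxnb2, Plxnc1 and Robo1 the reverse, as were 18.8%. Relative to the shift of all genes, Dcc, Epha4, Sema4b and Sema6d no longer reached 2-fold in both pairs, which left 8 and 3 members. Of the 5 opposite members, Plxnb2 then fell under 2-fold without VEGF-C, Plxnc1 with it and Robo1 in both pairs. With upper-quartile scaling Dcc, Efnb1, Epha4 and Sema6d dropped out and Efnb2 joined, which left 9 and 3. When the gene-rich libraries alone were compared, reporter-positive with VEGF-C against reporter-negative without it, 8 of the 11 were higher and 2 of the 4 lower. Both of these libraries also entered the choice of the 11 and the 4, so this is no independent check. The members under 2-fold there were Epha4 with a log2 ratio of 0.46, Nrp1 with 0.30, Plxna4 with 0.999, Sema5a with 0.018 and Sema6d with -0.19. That pair gave 20 of 42 members higher and 8 lower, against 26.8% and 25.8% of all genes.

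**Figure D3:**
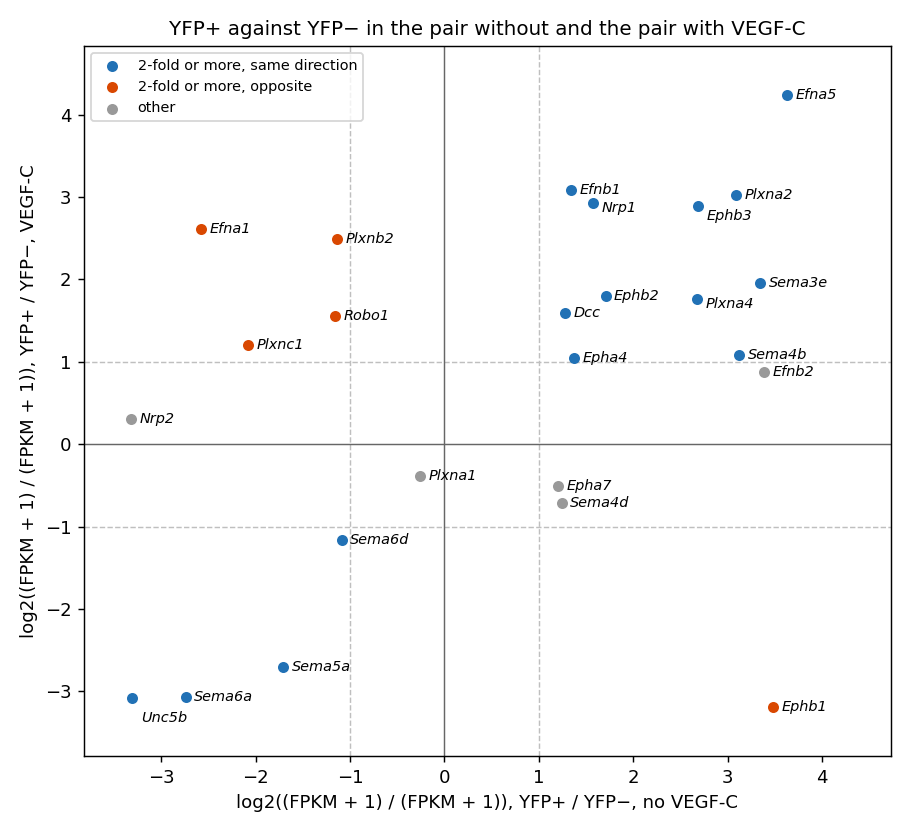
Log2 ratio of reporter-positive to reporter-negative cells without VEGF-C (horizontal) and with VEGF-C (vertical) for the 25 members measured in both pairs, with dashed lines at 2-fold. The 11 members at the upper right are higher in both pairs and the 4 at the lower left lower in both, and Ephb1 stands alone at the lower right.

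Among the ephrin ligands, the B class was led by Efnb2. Efnb2, a transmembrane ligand of EphB receptors and of EphA4 (chromosome 8, 8617434 to 8661242, minus strand), was at 58.8 FPKM in the reporter-positive library and 14.3 FPKM with added VEGF-C, against 4.73 FPKM in the reporter-negative library and 7.35 FPKM with VEGF-C. It was 12.4-fold higher in reporter-positive cells without VEGF-C and 1.95-fold higher with it, the latter under the threshold at a log2 ratio of 0.87. Efnb1, another EphB ligand, was at 6.94 FPKM and, given VEGF-C, at 7.82 FPKM in the reporter-positive libraries, and at 2.13 and 0.0425 FPKM in the reporter-negative libraries. It was higher in reporter-positive cells in both pairs, and the last value rests on 1 fragment. Efnb3, the remaining B ephrin, was at 10.1 FPKM in the reporter-negative library alone, at 0.231 and 0.0827 FPKM in the reporter-positive libraries, and listed at 0 in the reporter-negative VEGF-C library. The B ephrins thus did not share a direction. Without VEGF-C, 2 were higher and 1 lower, where 30.1% of all genes were higher and 46.7% lower.

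The class A ephrins, which are held in the membrane by a lipid anchor and bind EphA receptors, stood mainly in the reporter-positive VEGF-C library. Efna5 was at 11.7 FPKM in the reporter-positive library and 17.8 FPKM with VEGF-C, at 0.0283 FPKM from 3 fragments in the reporter-negative library and listed at 0 in the remaining library. Its log2 ratios of 3.63 and 4.24 put it among the 5 highest members of both pairs. Efna2 was at 12.3 FPKM in the reporter-positive VEGF-C library and at 0.289 FPKM in the reporter-negative library, and was listed at 0 in both gene-poor libraries. Efna4 was at 7.86 FPKM in the reporter-positive VEGF-C library and at 0.0985 FPKM in the one not given VEGF-C, and both reporter-negative libraries listed it at 0. Exons of 4731419I09Rik cover 10.5% of the exonic bases of Efna4, and reads of overlapping genes cannot be told apart in these unstranded libraries. Efna1 was at 0.321 and 5.11 FPKM in reporter-positive cells without and with added VEGF-C and at 6.88 FPKM in the reporter-negative library, and was listed at 0 there once VEGF-C was added. It was therefore lower in reporter-positive cells without VEGF-C and higher with it. All 4 measured A ephrins were higher in reporter-positive cells in the pair with VEGF-C. This held relative to the shift of all genes and with upper-quartile scaling. Of all genes, 47.0% were higher, 35.1% relative to the shift and 53.7% with upper-quartile scaling. All 4 were listed at 0 in the reporter-negative VEGF-C library, so the minimum and the added 1 FPKM alone fix their unscaled calls.

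Among the Eph receptors, Ephb3 had the highest level in both libraries without VEGF-C, while Epha2 led in the reporter-positive and Ephb1 in the reporter-negative VEGF-C library. Ephb3 (chromosome 16, 21204755 to 21223305, plus strand), a receptor of B ephrins, was at 36.5 FPKM in the reporter-positive library (95% exact Poisson interval 34.3 to 38.8 FPKM, counting error only) and 15.5 FPKM with VEGF-C. In the reporter-negative library it was at 4.82 FPKM (4.36 to 5.31) and with VEGF-C at 1.22 FPKM (0.861 to 1.69). It was thus 7.58-fold and 12.7-fold higher in reporter-positive cells, and lower with VEGF-C in either population. Ephb2, whose signalling shapes synapses, was at 2.27 and 2.48 FPKM in the reporter-positive libraries and listed at 0 in both reporter-negative libraries. Ephb4, best known as the receptor of ephrin-B2 on venous endothelium, was at 5.76 FPKM in the reporter-positive library and listed at 0 in the others. All 4 measured EphB receptors were higher in reporter-positive cells without VEGF-C, under each of the 3 scalings tried. Of all genes, 30.1% were higher, 38.9% relative to the shift of all genes and 21.5% with upper-quartile scaling. Ephb2 and Ephb4 were listed at 0 in the reporter-negative library, so the minimum and the added 1 FPKM alone fix their unscaled calls.

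Ephb1 went opposite ways in the pairs. This receptor, known in mice to act on neural progenitors of the dentate gyrus (chromosome 9, 101922128 to 102354693, minus strand), was at 17.2 FPKM from 532 fragments in the reporter-positive library (interval 15.7 to 18.7 FPKM) and at 1.14 FPKM from 377 fragments with VEGF-C (1.03 to 1.26). In the reporter-negative library it was at 0.627 FPKM from 58 fragments (0.476 to 0.811) and with VEGF-C at 18.5 FPKM from 617 fragments (17.1 to 20.1). The high values stand in the gene-poor libraries, and the low values in the gene-rich ones. Ephb1 was 27.4-fold higher in reporter-positive cells without VEGF-C and 16.2-fold lower with it.

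The EphA receptors together stood below the EphB receptors in all libraries but the reporter-positive VEGF-C library, where they summed to 22.5 and 19.1 FPKM. Epha4, which binds ephrins of both classes, was at 8.60 and 4.07 FPKM in reporter-positive cells without and with added VEGF-C and at 2.70 and 1.45 FPKM in reporter-negative cells. It was higher in reporter-positive cells in both pairs, with log2 ratios of 1.38 and 1.05. Epha2, a receptor of epithelia and progenitors, was at 16.1 FPKM from 4565 fragments in the reporter-positive VEGF-C library, at 0.0375 and 0.0880 FPKM in the libraries without VEGF-C, and listed at 0 in the reporter-negative VEGF-C library. Epha7 was at 4.37 FPKM in the reporter-positive library and between 0.706 and 1.42 FPKM elsewhere. Epha5 reached 1.47 FPKM in the reporter-positive VEGF-C library.

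Plexin-A genes, the signalling receptors of class 3 and class 6 semaphorins, were the highest receptor class in the reporter-positive library at a summed 68.2 FPKM. Plxna2 (chromosome 1, 194618218 to 194816869, plus strand), a semaphorin receptor of dentate granule cells, was at 39.6 FPKM in the reporter-positive library and 20.9 FPKM with VEGF-C. It was at 3.77 FPKM in the reporter-negative library and at 1.68 FPKM with VEGF-C there. Levels in reporter-positive cells were thus 10.5-fold and 12.4-fold higher. Plxna4 was at 10.4 and 2.58 FPKM in reporter-positive and at 0.792 and 0.0530 FPKM in reporter-negative cells, again higher in both pairs. Plxna3 was at 12.9 FPKM in the reporter-positive library, at 0.607 FPKM there with added VEGF-C and at 0.0559 and 0.0971 FPKM in reporter-negative cells, and its log2 ratio of 3.72 was the highest of the members in the pair without VEGF-C. Plxna1 was the steadiest of the class, at 5.21, 7.45, 6.45 and 10.1 FPKM in the reporter-positive, reporter-positive VEGF-C, reporter-negative and reporter-negative VEGF-C libraries, with no difference of 2-fold. Exons of Gm26811 cover 10.7% of the exonic bases of Plxna1. For Ephb1, Sema4a, Sema4c, Plxnb1 and Plxnc1, other genes cover 1.35% to 7.27%.

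The other plexins were low in reporter-positive cells without VEGF-C. Plxnb3, which in mice is known from oligodendrocytes, was at 12.4 FPKM in the reporter-negative library and 1.66 FPKM in the reporter-positive library. Under VEGF-C it was at 0.427 FPKM in reporter-negative cells and listed at 0 in reporter-positive cells. Plxnb2 and Plxnc1 were each lower in reporter-positive cells without VEGF-C and higher with it. After re-centring on all genes, Plxnb2 no longer reached 2-fold without VEGF-C, nor Plxnc1 with it. Plxnb2 was at 0.338 and 4.86 FPKM in reporter-positive and at 1.93 and 0.0420 FPKM in reporter-negative cells. Plxnc1, the plexin that binds Sema7a, was listed at 0 and at 1.83 FPKM in reporter-positive and at 3.21 and 0.230 FPKM in reporter-negative cells. Plxnb1, a receptor of Sema4d, reached 1.28 FPKM in the reporter-positive VEGF-C library.

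The neuropilins differed from each other. Nrp1 (chromosome 8, 128358604 to 128503363, plus strand) was at 17.4 FPKM in reporter-positive (interval 16.1 to 18.7 FPKM) and at 5.16 FPKM in reporter-negative cells (4.76 to 5.58), a 3.36-fold difference. Under VEGF-C it was at 6.59 FPKM and listed at 0, where a true count of 0 allows up to 0.0687 FPKM by a floor of 3 fragments. Nrp2, the neuropilin with the stronger known tie to VEGF-C and Flt4 (chromosome 1, 62703285 to 62818695, plus strand), was 57.9-fold lower in reporter-positive cells without VEGF-C, at 0.187 FPKM from 8 fragments against 10.8 FPKM from 1328 fragments. Under VEGF-C it was at 2.54 and 1.87 FPKM, a log2 ratio of 0.30. Nrp1 therefore exceeded Nrp2 in both reporter-positive libraries, and Nrp2 exceeded Nrp1 in both reporter-negative libraries. Flt4 encodes VEGFR3, for which the reporter is named, and was listed at 0 in the reporter-positive library, at 2.01 FPKM once VEGF-C was added, and at 0.0584 and 0.348 FPKM in the reporter-negative libraries. Of the 8 VEGF ligands and receptors that neuropilins can partner, 6 reached 1 FPKM. Kdr, the main VEGF-A receptor, was at 23.1 FPKM in the reporter-negative VEGF-C library, in which Nrp1 was listed at 0, and at most 1.02 FPKM in the others.

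Semaphorins of classes 4 to 7 were split between the populations. Sema4b, a transmembrane semaphorin (chromosome 7, 80186841 to 80226527, plus strand), was at 44.5 and 10.8 FPKM in reporter-positive cells without and with added VEGF-C and at 4.22 and 4.56 FPKM in reporter-negative cells. It was 10.5-fold and 2.36-fold higher in reporter-positive cells. Sema6a, a transmembrane ligand of Plxna2 and Plxna4, was lower in reporter-positive cells, at 1.62 and 4.44 FPKM against 16.5 and 44.5 FPKM. Both receptors went the other way in both pairs. The log2 ratios of Sema6a were -2.74 and -3.06. Sema5a, a ligand that in mice acts through Plxna2 on dentate granule neurons (chromosome 15, 32244810 to 32696341, plus strand), was listed at 0 and at 2.30 FPKM in reporter-positive and at 2.26 and 20.5 FPKM in reporter-negative cells. Sema6d was at 2.96 and 6.40 FPKM in reporter-positive and at 7.42 and 15.5 FPKM in reporter-negative cells, lower in both pairs by 2.51-fold and 2.43-fold.

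Other class 4 to 7 members had no common direction over the pairs. Sema4d, a ligand of B plexins, was at 10.2 and 6.07 FPKM in reporter-positive and at 3.72 and 10.6 FPKM in reporter-negative cells, so it was higher in reporter-positive cells without VEGF-C and had a log2 ratio of -0.71 with it. Sema4a, also known from immune cells, was at 42.4 FPKM from 929 fragments in the reporter-negative VEGF-C library, at 0.0164 FPKM from 1 fragment there without VEGF-C, at 2.17 FPKM in the reporter-positive VEGF-C library and listed at 0 in the remaining one. Sema7a, the lipid-anchored ligand of Plxnc1, was at 5.08 and 0.337 FPKM in reporter-positive and at 1.72 and 0.127 FPKM in reporter-negative cells. Sema6b was at 4.74 FPKM in the reporter-positive library, at 0.0111 FPKM there with added VEGF-C and listed at 0 in reporter-negative cells. Sema5b and Sema4f reached 3.12 and 3.04 FPKM in the reporter-positive VEGF-C library, and Sema4c 1.09 FPKM in the reporter-positive library.

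The secreted class 3 semaphorins each kept to few libraries. Sema3e, which unlike the rest of its class can bind Plxnd1 without a neuropilin, was at 9.16 FPKM in the reporter-positive library and 2.88 FPKM with added VEGF-C, and listed at 0 in both reporter-negative libraries. Its receptor gene Plxnd1 stayed at or under 0.806 FPKM. Sema3d was at 22.6 FPKM from 1092 fragments in the reporter-negative VEGF-C library, at 0.0188 FPKM in the reporter-positive VEGF-C library, and listed at 0 in the libraries without VEGF-C. Sema3c was at 7.29 and 5.66 FPKM in the reporter-positive and reporter-negative VEGF-C libraries, and listed at 0 and at 0.0198 FPKM in those without VEGF-C. Sema3a, the classical repellent of axons, reached 1.14 FPKM in the reporter-positive VEGF-C library and was listed at 0 in the others.

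Of the netrin receptors, only Unc5b and Dcc were called in both pairs, in opposite directions, while Slits and Robos stayed under 2 FPKM. Unc5b, a repulsive netrin receptor also found on vessels (chromosome 10, 60762593 to 60831581, minus strand), was at 23.8 FPKM in the reporter-negative library and 27.1 FPKM with VEGF-C, against 1.51 and 2.33 FPKM in reporter-positive cells. That is 15.8-fold and 11.7-fold lower in reporter-positive cells, and the VEGF-C and control libraries of a population differed by less than 2-fold. Dcc, the attractive netrin receptor, went the other way, at 3.32 and 2.89 FPKM in reporter-positive and at 0.778 and 0.285 FPKM in reporter-negative cells. Its log2 ratio fell under 2-fold without VEGF-C under upper-quartile scaling, at 0.90, and with VEGF-C after re-centring, at 0.91. Ntn1, the ligand of Dcc and Unc5b, was at 7.61 FPKM in the reporter-positive VEGF-C library and 0.938 FPKM without added VEGF-C. In reporter-negative cells Ntn1 was at 0.00849 and 0.0709 FPKM from 1 and 3 fragments. Unc5c reached 1.68 FPKM in the reporter-negative library and Unc5a 1.06 FPKM in the reporter-positive VEGF-C library. Slit1, the highest Slit, was at 0.696 FPKM in the reporter-positive VEGF-C library and 0.415 FPKM in the reporter-negative VEGF-C library. It was listed at 0 without VEGF-C. Slit2 was at 0.166 FPKM in the reporter-positive VEGF-C library and 0.0121 FPKM in the reporter-negative library, Slit3 at 0.0357 FPKM in the reporter-positive VEGF-C library, and both were listed at 0 otherwise. Robo1 was at 1.94 FPKM in the reporter-positive VEGF-C library and 1.28 FPKM in the reporter-negative library, at 0.0191 FPKM in the reporter-positive library and listed at 0 in the remaining library. Robo2 reached 1.10 FPKM in the reporter-negative VEGF-C library, with 0.108 FPKM without VEGF-C, 0.00168 FPKM in the reporter-positive VEGF-C library and a listed 0 in the remaining library. Robo3 reached 1.51 FPKM in the reporter-negative library.

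VEGF-C was added to ask how cells with and without the reporter respond to the ligand of Flt4. In reporter-positive cells, 19 of 43 measured members were higher with VEGF-C and 13 lower, where 45.5% of all genes were higher and 26.3% lower. The median was 0.44 over the members and 0.59 over all genes. Relative to the shift of all genes, 11 were higher and 17 lower, against 34.4% and 36.8% of all genes, and the members' median was -0.15, a change of sign. With upper-quartile scaling, 23 were higher and 10 lower, against 52.7% and 16.4%. Of the 19, 11 were listed at 0 in the gene-poor library without VEGF-C, and of the 13, 2 in the library with it. In reporter-negative cells, 7 of 29 members were higher with VEGF-C and 13 lower, against 25.3% and 45.3% of all genes, with medians of -0.59 and -0.54. Of the 7, 1 was listed at 0 without VEGF-C, and of the 13, 5 were listed at 0 with it. Relative to the shift, 11 were higher and 7 lower, against 35.9% and 35.9% of all genes, and with upper-quartile scaling 5 were higher and 15 lower, against 16.1% and 51.7%.

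In reporter-positive cells, 3 of 4 measured class A ephrins were higher with VEGF-C (4 with upper-quartile scaling) and 3 of 4 EphB receptors lower (2 with upper-quartile scaling). Of all genes 45.5% were higher and 26.3% lower, and 52.7% and 16.4% with upper-quartile scaling. Re-centring left 3 class A ephrins higher and 3 EphB receptors lower, against 34.4% and 36.8% of all genes. These comparisons share libraries with those of the populations. The receptor gene Epha2 had a log2 ratio of 4.04, Efna2 of 3.74, Efna4 of 3.01 and Efna1 of 2.21, and Efna5 of 0.57. Among the receptors of B ephrins, Ephb1 had -3.08, Ephb4 -2.76 and Ephb3 -1.19, and Ephb2 0.09. Efna2 was listed at 0 without VEGF-C and Ephb4 with it, so the minimum and the added 1 FPKM alone fix their unscaled calls. Efna4 was at 0.0985 FPKM from 1 fragment without VEGF-C, so its call was nearly fixed. Efnb2 was 4.11-fold lower with VEGF-C. Of the plexin-A genes, Plxna3 was 21.3-fold and Plxna4 4.04-fold lower, and Plxna2 had -0.89. Relative to the shift of all genes Plxna2 was also lower by 2-fold or more, and with upper-quartile scaling Plxna1 was higher by 2-fold or more. Class A ephrins summed to 12.1 FPKM without and 43.8 FPKM with VEGF-C, EphB receptors to 61.7 and 19.1 FPKM, and plexin-A genes to 68.2 and 31.5 FPKM.

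In reporter-negative cells, 6 of 9 measured semaphorins were higher with VEGF-C and 1, Sema7a, was lower, where 25.3% and 45.3% of all genes were. Upper-quartile scaling left 4 higher and 1 lower, against 16.1% and 51.7% of all genes, and re-centring gave 7 and 0, against 35.9% and 35.9%. The 6 made up most of the 7 higher members: Sema4a with a log2 ratio of 5.42, Sema3d with 4.56, Sema5a with 2.72, Sema3c with 2.71, Sema6a with 1.38 and Sema4d with 1.30. Ephb1 was the other, with 3.59. Sema3d was listed at 0 without VEGF-C, so the minimum and the added 1 FPKM alone fix its unscaled call. Sema3c and Sema4a were at 0.0198 and 0.0164 FPKM there, from 2 and 1 fragments, so their calls were nearly fixed. Class 4 to 7 semaphorins summed to 36.1 FPKM without and 139 FPKM with VEGF-C, and class 3 to 0.0198 and 28.3 FPKM. The lower members were led by Efnb3 at -3.47, Plxnb3 at -3.23, Efna1 at -2.98, Nrp1 at -2.62 and Nrp2 at -2.04. Of these 5, Efnb3, Efna1 and Nrp1 were listed at 0 with VEGF-C.

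The VEGF-C comparisons of the populations share no library. Of 24 members measured in both, Sema3c, Sema4a, Sema5a and Sema6a were higher in both (4 members, 16.7%, against 10.9% of all genes). Ephb3, Nrp1, Plxnb3 and Sema7a were lower in both (4 members, against 10.1%). Relative to the shift of all genes, 3 and 2 members were left, without Sema6a, Ephb3 and Sema7a. With upper-quartile scaling 3 and 2 were left, without Sema6a, Ephb3 and Nrp1. Another 6 went opposite ways by 2-fold or more in each population (25%, against 28.2% of all genes). Ephb1 alone of these was lower in reporter-positive and higher in reporter-negative cells, as were 7.32% of all genes. The other 5, Efna1, Nrp2, Plxnb2, Plxnc1 and Robo1, went the reverse way, as did 20.9% of all genes. After re-centring on all genes, only Efna1 and Ephb1 still went opposite ways by 2-fold or more. Over the 48 members at 1 FPKM or more in any library, the 6 are 12.5%, against 20.4% of all genes (5.29% in the direction of Ephb1 and 15.1% in the other). The difference between the responses was not tested.

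**Figure D4:**
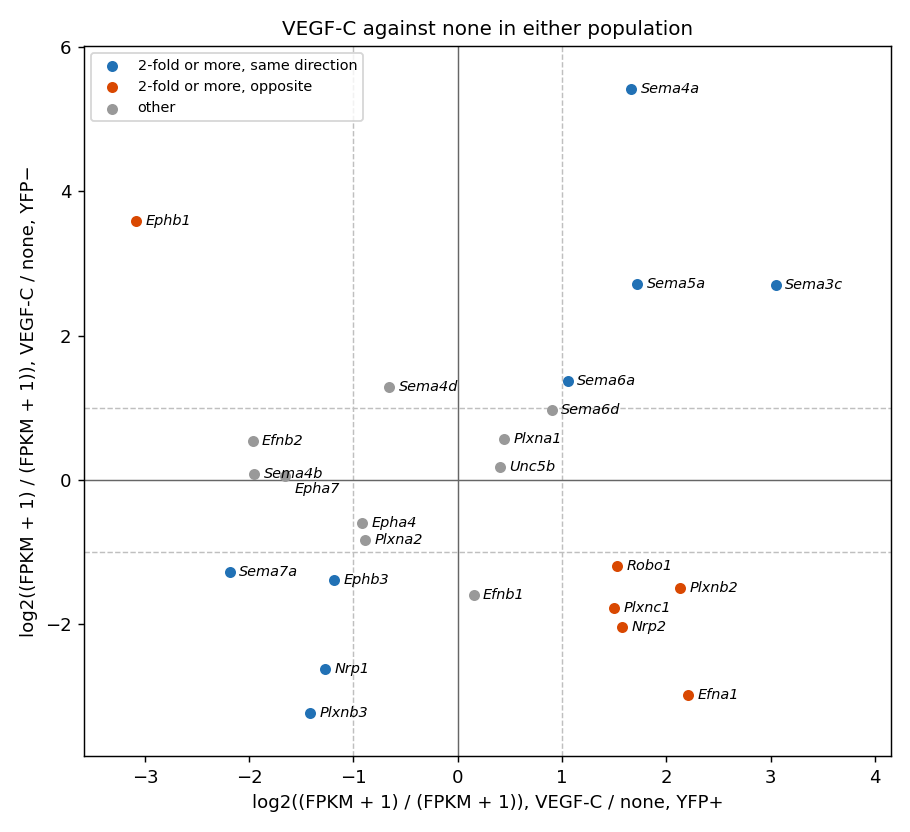
Log2 ratio of VEGF-C to no VEGF-C in reporter-positive (horizontal) and reporter-negative cells (vertical) for the 24 members measured in both, with dashed lines at 2-fold. Sema3c, Sema4a, Sema5a and Sema6a are at the upper right, Ephb1 is alone at the upper left, and 5 members are at the lower right.

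Genes that act beside or below these receptors moved in both directions. The list held 63 genes, among them collapsin response mediators, kinases and cell adhesion co-receptors, and 62 reached 1 FPKM. Without VEGF-C, 25 of 56 were higher in reporter-positive cells and 13 lower, against 30.1% and 46.7% of all genes, and the median was 0.78 against -0.66. Re-centring gave 32 and 13, against 38.9% and 36.2% of all genes, and upper-quartile scaling 20 and 19, against 21.5% and 53.0%. With VEGF-C, the counts were 24 and 17 of 60, against 47.0% and 27.6%, and the median 0.18 against 0.69. Re-centring gave 18 and 24, against 35.1% and 37.6% of all genes, with a median of -0.51, a change of sign. Upper-quartile scaling gave 27 and 13 of 61, against 53.7% and 19.7%. Without VEGF-C the chemokine receptor gene Cxcr4 led, at 47.0 FPKM in reporter-positive and 1.52 FPKM in reporter-negative cells. It was followed by Srgap3, a GTPase-activating protein gene of the Slit pathway, at 43.8 and 1.80 FPKM, and Flrt1, an adhesion co-receptor of Unc5 proteins and Robo1, with a log2 ratio of 3.85. The lowest were Rnd1, a GTPase that acts with plexins, at -4.68, the kinase gene Pak1 at -4.37 and Rasa1 at -3.95. With VEGF-C the highest were Dpysl3, a collapsin response mediator, at 5.20, the adaptor gene Nck2 at 4.33 and Enah at 4.17, and among the lowest were Ablim3 at -3.53 and Dpysl5 at -2.58. VEGF-C against none gave 18 higher and 18 lower of 57 in reporter-positive cells, against 45.5% and 26.3% of all genes. Re-centring turned this to 13 and 24, against 34.4% and 36.8% of all genes. Upper-quartile scaling turned it to 24 and 9 of 58, against 52.7% and 16.4%. In reporter-negative cells VEGF-C against none gave 15 higher and 19 lower of 55, against 25.3% and 45.3%. Re-centring turned this to 24 and 14, against 35.9% and 35.9% of all genes, and upper-quartile scaling to 12 and 21, against 16.1% and 51.7%.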

How the data were processed

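Per the labels' protocols, RNA was amplified with a low-input SMARTer kit, and reads of 75 bp from both ends were mapped without strand. Per the submitters' processing notes, the tools were TopHat2 (2.0.9), Bowtie2 (2.1.0), SAMtools (0.1.18) and Cufflinks (2.1.1), with build mm10. The sources used here do not name the annotation version. The authors deposited FPKM and, per the file headers, normalized counts, used here as a signal because they were not whole numbers. For 7610 genes above 0 in all libraries, the ratio of both tables had a median coefficient of variation of 0.230%. In each library, normalized counts rose in steps of 1 fragment: up to 2000 steps, 99.0% to 99.6% of values were whole within 0.05. Dividing by the step gave fragments, and from these exact Poisson intervals (95%) and the 3-fragment floor, which cover counting error only, since amplified fragments are not independent molecules. Of 23361 rows, 27 whose symbols had become dates were left out.

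Ratios used a pseudocount of 1 FPKM and a minimum of 1 FPKM in either library, in Python 3.11.15 with pandas 2.3.3, numpy 2.4.6 and SciPy 1.17.1, checked on simulated data. Each group has 1 library, so no count model was fitted and no p computed. Named members reached 10 FPKM, stood among the 5 highest or lowest of a comparison, or were textbook ligands and receptors. Others of 1 FPKM or more are given by range or peak value. Of the pathway genes, the 3 highest and 3 lowest of each population comparison were to be named, and 1 of them is not reported here. Members, pathway genes and markers were chosen with earlier results of these data known. Positions are from GENCODE M21 and upstream sequences from RefSeq (GRCm38.p6). Alternatives tried were another pseudocount, other filters, re-centring, upper-quartile scaling and the normalized counts, and, chosen after seeing the data, members above 0 in the libraries compared, the gene-rich libraries alone, and the scalings for the pathway genes and semaphorins.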

Additional observations from a re-analysis of the deposited data

Results flagged for a closer look

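For 6 members the responses to VEGF-C went opposite ways by 2-fold or more in reporter-positive and reporter-negative cells, with 1 library a group, so the difference was not tested. Over the 48 members at 1 FPKM or more in any library this is 12.5%, against 20.4% of all genes. Ephb1 was lower in reporter-positive and higher in reporter-negative cells, and the log2 response of reporter-positive minus that of reporter-negative cells was -6.67. The other 5 were higher in reporter-positive and lower in reporter-negative cells. The difference was 5.19 for Efna1, 3.62 for Plxnb2, 3.62 for Nrp2, 3.28 for Plxnc1 and 2.72 for Robo1. For Efna1, Plxnc1 and Robo1 1 library was listed at 0, and Ephb1, Nrp2 and Plxnb2 were above 0 in all 4. In all genes, 15.1% took the direction of these 5 and 5.29% that of Ephb1. Relative to the shift of all genes, Nrp2, Plxnb2, Plxnc1 and Robo1 no longer reached 2-fold in both populations. Only Efna1 and Ephb1 then stayed opposite. The gene-rich library is the one with VEGF-C in reporter-positive cells and the one without it in reporter-negative cells, and the part of this in the pattern was not tested.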

How the results depend on the processing

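No paired analysis was possible because each group has 1 library. With a pseudocount of 0.1, no filter, upper-quartile scaling or the normalized counts, none of the members' counts higher, lower or opposite in the 4 comparisons moved by over 1.5 times. Some smaller counts did: with upper-quartile scaling, members lower with VEGF-C in both populations went from 4 to 2, and class 4 to 7 semaphorins higher with VEGF-C in reporter-negative cells from 4 to 2. With a minimum of 5 FPKM, 7 of 23 members were lower in reporter-positive cells without VEGF-C, in place of 13 of 34. In the pair with VEGF-C, 11 of 22 were then higher, in place of 25 of 39. For VEGF-C against none, 6 were higher in reporter-positive cells in place of 19, and 5 lower in reporter-negative cells in place of 13. Only 3 were opposite in place of 6. The members' medians for VEGF-C then reversed to -0.89 in reporter-positive and 0.77 in reporter-negative cells. With re-centring, 8 were lower without and 15 higher with VEGF-C in reporter-positive against reporter-negative cells. For VEGF-C, 11 were then higher in reporter-positive cells (median -0.15, reversed), and 11 higher and 7 lower in reporter-negative cells. Of the opposite members, only Efna1 and Ephb1 stayed past 2-fold in both populations after re-centring. Among members above 0 in the libraries compared, 12 were higher in reporter-positive cells with VEGF-C, 8 higher with VEGF-C in reporter-positive and 8 lower in reporter-negative cells, with reversed medians of -0.41 and 0.0903, and 3 were opposite. For this filter and the minimum of 5 FPKM, shares and medians of all genes are not given here. A change of the members can therefore not be told from a change of all genes. Between the gene-rich libraries alone, 20 of 42 members were higher in reporter-positive cells and 8 lower, against 26.8% and 25.8% of all genes. Over 705 recomputed log2 ratios of the 37 named members, no ratio past 2-fold changed sign. This is little of a check, since a pseudocount or filter cannot change a sign and the re-centring shifts were under 2-fold. A filter leaves a ratio as it is, so the 82, 85 and 108 ratios under the filters could not move. Of the 705, 282 moved beyond their counting interval, nearly all with scaling or the pseudocount. Re-centring moved 105 and left 3, upper-quartile scaling moved 100 and left 6, and the pseudocount of 0.1 moved 76 and left 32. The cause of these moves was not tested, except that stricter filters count fewer members. Members under 1 FPKM in gene-poor libraries rest on few fragments.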
